A study of Mus musculus with 17 samples.

Results

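The Notch receptors Notch1, Notch2, Notch3 and Notch4, the ligands Jag1, Jag2 and Dll1, and the target genes Hes1, Hey1 and Heyl were followed in 17 mammary tumors of MMTV-CUX1 transgenic mice. These 10 genes were chosen by name, as receptors, ligands and targets of one pathway, out of 28786 genes represented on the array. All 17 mice were of the FVB strain and carried a transgene that expresses an isoform of the transcription factor CUX1, either p75 (9 tumors) or p110 (8 tumors), from the regulatory sequences of the mouse mammary tumor virus (MMTV), which are active in mammary epithelium. Epithelial tumor cells were cut out with a laser, their RNA was amplified in 2 rounds, and each tumor was hybridized on 2 or 4 two-color Agilent arrays against a universal mouse reference RNA, with the dyes exchanged between arrays. The ages of the mice are not given in the sources used here, and no normal mammary gland was among the samples.

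By histology, 4 tumors were adenosquamous carcinomas (all p75), 9 were solid carcinomas (3 p75 and 6 p110), 2 were adenomyoepitheliomas, 1 was an adenocarcinoma and 1 an adenoma. The study also sorted the tumors into clusters by the expression of Wnt genes on these same arrays. The high-Wnt cluster held 5 tumors (p75-47, p75-80, p75-94, p110-225 and p110-374), the medium-Wnt cluster 5 (p75-90, p75-129, p75-216, p110-98 and p110-121) and the low-Wnt cluster 7 (p75-101, p75-150, p75-534, p110-143, p110-314, p110-360 and p110-416). No Notch gene entered that clustering. Tumors are named here by transgene and mouse. All values below are log2 ratios of the tumor over the reference, so that 1 unit is a change of 2-fold, and a gene is called measured in a tumor when each of its arrays had the tumor color well above background.

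Notch receptors are single-pass membrane proteins that are activated by ligands of the Jagged and Delta families on a neighboring cell. Binding allows ADAM proteases and then the γ-secretase complex to cut the receptor, and the freed intracellular domain enters the nucleus, where it joins the DNA-binding protein RBPJ and Mastermind proteins and turns on genes of the Hes and Hey families of transcriptional repressors. In the mammary gland the pathway is known for its part in luminal cell fate, and Notch4 was first described as Int3, a gene found at insertion sites of MMTV in mouse mammary tumors. Notch4 is also known as an endothelial receptor and Notch3 as a receptor of mural cells of blood vessels.

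The values of a 60-base probe rest on a short stretch of each transcript. Of the 10 genes, 4 had several probes and 6 had 1. The 30 bases printed here, 5′ to 3′ as the array's annotation gives the probe, belong to the probes of the genes that varied most between tumors. For Notch1 they are the touching ends of a pair of adjacent probes, with the base that the array's annotation places in both in capitals.
Notch1, end of the single-spot probe at chr2:26466621-26466680 (mm7, minus strand): cctttttatttatatgtattgttttctatG
Notch1, start of the probe with 10 spots at chr2:26466563-26466621 (mm7, minus strand): Ggcactaggggaaaaacatatctgttccaa
Notch3, start of the probe at chr17:30311822-30311881 (mm7, minus strand): gcctaatagaaatgtttttaggctgttttt
Notch4, start of the probe at chr17:32669395-32669454 (mm7, plus strand): gttgatttcgagaatccctaaactctggaa
Dll1, start of the probe at chr17:13604553-13604612 (mm7, minus strand): gattactatgagccagtctttccttgaact
Hey1, start of the probe at chr3:8669867-8669926 (mm7, minus strand): gatttgggctctaaaagtattgttttacag
The positions and the mm7 build are those of the array's own annotation, in which the interval of the 10-spot Notch1 probe is 1 position shorter than its sequence. The exon or UTR each probe lies in was not analysed here. The GC content of the probes of the 10 genes ran from 25.0% to 53.3%.

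The share of all probes measured ranged from 18.3% in p110-374 to 61.9% in p75-129. The tumor color was dim against the reference in p110-98, p110-225 and p110-374, where the 95th percentile of the reference signal was 12.7, 8.70 and 11.8 times that of the tumor signal, against at most 4.06 times in the other tumors. High-Wnt tumors (n = 5) had a share of measured probes 7.40 percentage points below that of low-Wnt tumors (n = 7), a difference of -7.40 with an exact permutation p of 0.21 (two-sided). Without p75-94 it was -11.6 (exact permutation p = 0.0485). The share differed by -0.973 for adenosquamous minus solid (exact permutation p = 0.891, n = 4 and 9) and by 7.03 for p75 minus p110 (exact permutation p = 0.221, n = 9 and 8). In 16 tumors, 5 to 8 of 8 luminal markers and 3 to 6 of 6 basal markers were measured. The exception was p110-121, labelled as epithelial tumor cells, in which 2 of 8 luminal markers (Krt8 and Krt18) and 1 of 6 basal markers (Acta2) were measured. All 8 of 8 immune markers were measured in p110-121, as they were in p75-129 and p110-314. The legend of the study's heatmap does not list p110-121 by name. Several group differences are therefore given with and without this tumor. Of 8 endothelial markers, 1 to 7 were measured in a tumor (3 to 6 in high-Wnt and 5 to 6 in low-Wnt tumors), with Tie1 measured in none and Pecam1 in 1. Of 6 mural cell markers, 2 to 4 were measured in high-Wnt and 3 to 5 in low-Wnt tumors. The summed tumor signal of the endothelial markers ran from 2213 to 15390 in p75 tumors and from 19885 to 130760 in p110 tumors, which were scanned in different years, and that of the mural markers from 1154 to 3484 and from 4789 to 65773. These sums include markers that were not measured and did not follow the number measured. In p110-98, 1 of 8 endothelial markers (Esam) was measured and the sum was 98225. In p75-129, 7 of 8 were measured and the sum was 2213. Of 7 squamous markers, 2 to 6 were measured in high-Wnt and 1 to 4 in low-Wnt tumors, with Ivl measured in none. The part of these markers in the values below was not tested.

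Notch3, Notch1 and Notch2 were the receptors measured in most tumors. Notch3 was measured in all 17 tumors and was above the reference in 16 of them, with a lowest value of -0.33 in p110-121, a median of 1.87 and a highest value of 3.76 in the adenocarcinoma p75-216. The next highest values were 3.23 in the adenomyoepithelioma p75-90 and 2.89 in the solid carcinoma p75-534. In the high-Wnt tumors Notch3 stood at 1.26 in p75-47, 2.09 in p75-80, 1.18 in p75-94, 1.65 in p110-225 and 1.87 in p110-374, all within the range of the low-Wnt tumors (lowest 0.93, median 2.04, highest 2.89).

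Notch1 was measured in 16 tumors, all but p110-98. Its lowest value was -0.29 in p110-360, its median 0.80 and its highest value 3.79 in p75-216, the tumor that was also highest in Notch3. The next value, 2.45 in p110-314, was well below it. The probe was spotted 10 times on the array, and the standard deviation (SD) between spots had a median of 0.0705 over tumors, against an SD of 1.03 between tumors. The adjacent single-spot probe, measured in 9 tumors, was likewise highest in p75-216 (2.68) and p110-314 (2.13) and lowest in p110-360 (-0.64).

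Notch2 varied least of the 3 broadly measured receptors. By its brightest probe it lay below the reference in all tumors but p75-80, with a lowest value of -1.54 in p110-314, a median of -0.64 and a highest value of 0.04 in p75-80. The SD over tumors was 0.42, lower than the median SD of 0.648 over the 9594 genes measured in at least 12 tumors. Its other 2 probes were dimmer and were measured in 6 and 4 tumors, with medians of 0.013 and 0.12. Their tumor signal was well above background on 18 and 13 of 38 arrays. Most of their ratios therefore cannot be set against the level of the brightest probe. These 2 probes spanned 1.11 and 0.90 log2 units, against 1.58 for the brightest probe.

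Notch4 was far above the reference in 1 tumor. It was measured in 4 tumors, all of them low-Wnt solid carcinomas: p75-534 at 4.99, p110-360 at 0.86, p110-416 at 0.81 and p110-314 at 0.26. The value in p75-534 was seen with the tumor in either dye, whereas in p110-416 the dyes differed by 1.13, more than its value. The reference was well above background on 8 of 38 arrays for this probe, so most of these ratios are set against a reference near background, and in the other 13 tumors neither the tumor's level nor its closeness to the reference can be read from them. On the high-Wnt arrays Notch4 was not well above background on any of 10, against 10 of 18 low-Wnt arrays. The mean signal of the low-Wnt tumors was at least 1.99-fold higher on that account. This bound averages over tumors in which Notch4 was not measured and rests largely on p75-534. The median log2 ratio of the low-Wnt tumors was 0.35. Without p75-534 the difference of high-Wnt minus low-Wnt moved from -1.12 (limma, adjusted p = 0.540) to -0.46 (limma, adjusted p = 0.230). In p75-534, 5 of 8 endothelial markers (Cdh5, Kdr, Esam, Emcn and Cldn5) were measured. The part of endothelial cells in its Notch4 value was not tested. In bulk RNA of this kind, fewer cells of a type and less RNA per cell cannot be told apart.

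**Figure D1:**
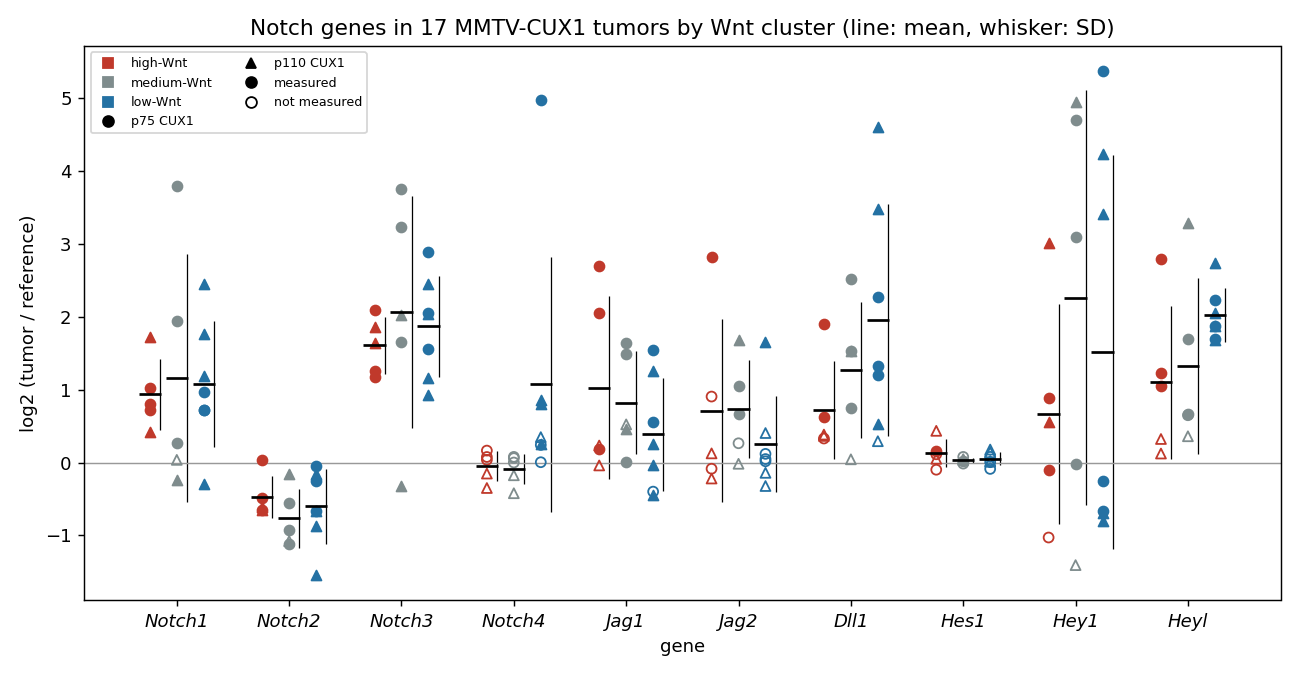
Each point is 1 tumor, placed by the log2 ratio of tumor over reference for each of the 10 Notch genes, with color for the Wnt cluster, shape for the transgene, filled symbols for tumors in which the gene was measured, and a line and whisker for the mean and SD of a cluster (n = 5, 5 and 7). The 3 clusters overlap for every gene, Notch4 has a single high point at 4.99, and Hey1 spans from -1.41 to 5.38.

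Among the ligands, Jag1 was measured in 13 tumors, Dll1 in 12 and Jag2 in 5. Jag1, which encodes a Jagged ligand, had a lowest value of -0.44 in p110-314, a median of 0.47 and a highest value of 2.71 in the adenosquamous carcinoma p75-80. In the 4 adenosquamous carcinomas it was 0.19 in p75-47, 2.71 in p75-80, 2.06 in p75-94 and 0.55 in p75-101, so 2 of these tumors stood well above the other 2. In the 9 solid carcinomas the lowest value was -0.44, the median 0.01 and the highest 1.54, which overlapped the adenosquamous range. A second Jag1 probe was measured in 1 tumor and spanned 0.50 log2 units.

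Jag2, the other Jagged ligand, was measured in p75-80 at 2.82, p110-121 at 1.69, p110-143 at 1.66, p75-90 at 1.06 and p75-129 at 0.67. In p110-121 the dyes differed by 1.33. The remaining 12 tumors lay between -0.32 and 0.91 without being measured. The tumor highest in Jag2, p75-80, was also the highest in Jag1.

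Dll1, a Delta family ligand, was high in few tumors. It reached 4.61 in p110-143 and 3.48 in p110-360, both low-Wnt solid carcinomas, and had a median of 1.20 and a lowest value of 0.05 in p110-121. The median SD between its 10 spots was 0.169, against an SD of 1.25 between tumors. For Dll1 the dyes differed most in p110-98, by 1.44. The reference was well above background on 4 of 38 arrays, so the ratios give no exact fold over it. In the high-Wnt tumors Dll1 was 1.90 in p75-80 and 0.63 in p75-94, and lay between 0.33 and 0.39 in the other 3, in which it was not measured. The low-Wnt tumors had a lowest value of 0.29, a median of 1.33 and a highest value of 4.61, and overlapped them.

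Hey1, a transcriptional repressor induced by Notch, showed the widest spread of the 10 genes. It was measured in 15 tumors, all but p75-47 and p110-121. Its SD over 17 tumors was 2.40, a value at or above that of 99.4% of the 9594 genes measured in at least 12 tumors. No tumor lay between 0.89 and 3.02. Above this gap were p75-534 at 5.38 (41.5 times the reference), p110-98 at 4.95, p75-216 at 4.71, p110-143 at 4.24, p110-314 at 3.41, p75-90 at 3.09 and p110-374 at 3.02. The other 10 tumors ran from -1.41 in p110-121 to 0.89 in p75-80, and the lowest values, -1.41 and -1.03, were those of the tumors in which Hey1 was not measured. Each Wnt cluster and each transgene had tumors above and below the gap. All 4 adenosquamous carcinomas lay below it (-1.03 in p75-47, 0.89 in p75-80, -0.11 in p75-94 and -0.25 in p75-101), and the 9 solid carcinomas lay on both sides (lowest -1.41, median -0.01, highest 5.38). The median gap between arrays with the tumor in Cy3 and in Cy5 was 0.241 for Hey1, and the largest was 0.704, smaller than the gap between tumors.

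**Figure D2:**
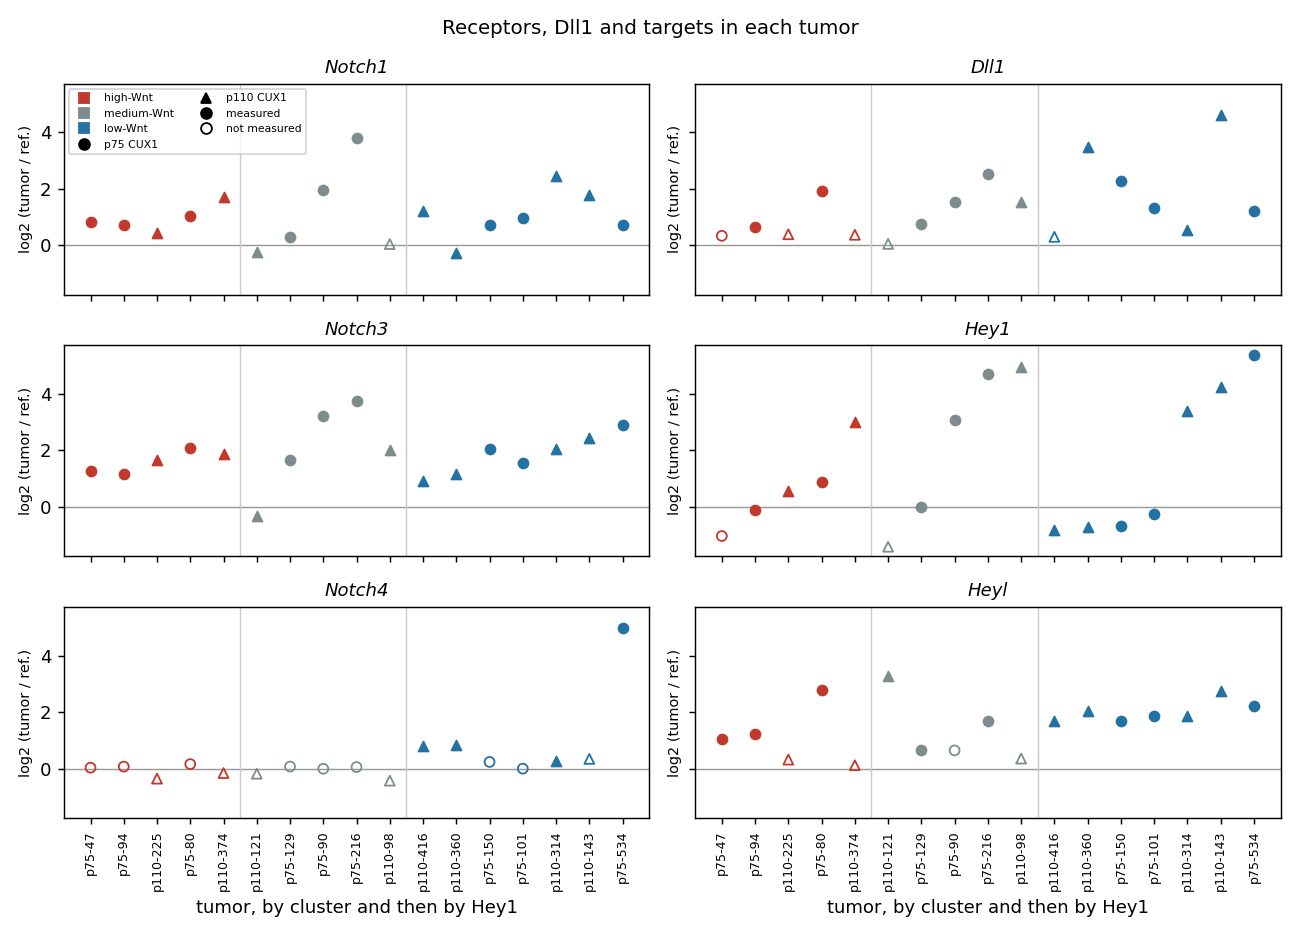
Log2 ratios of tumor over reference for 6 Notch genes in each of 17 tumors, which are ordered on the horizontal axis by cluster (gray lines separate high-Wnt, medium-Wnt and low-Wnt) and then by Hey1, with symbols as in the plot by cluster. Hey1 steps from 0.89 or lower to 3.02 or higher within each cluster's order, p75-216 is highest in Notch1 and Notch3, and p75-534 is highest in Notch4 and Hey1.

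Heyl, a related repressor, was measured in 13 tumors, with a lowest value of 0.13 in p110-374, a median of 1.70 and a highest value of 3.29 in p110-121. The order differed from that of Hey1. The tumor p110-121 was highest in Heyl and lowest in Notch3, and had the lowest ratios of Hey1 and Dll1 without these being measured in it. All 7 low-Wnt tumors measured Heyl within a narrow range (lowest 1.68, median 1.88, highest 2.74), whereas the high-Wnt tumors stood at 1.06 in p75-47, 2.79 in p75-80, 1.22 in p75-94, 0.32 in p110-225 and 0.13 in p110-374. The last 2 are among the dimmest tumors, and Heyl was not measured in them. A second Heyl probe was measured in 1 tumor and ran from -0.0057 to 0.33 over all tumors, and its difference of high-Wnt minus low-Wnt was -0.05. The dyes differed most for Heyl in p110-314, by 1.69, and the reference was well above background on 5 of 38 arrays.

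Hes1, the classical Notch target, was measured in p75-94 at 0.16 and in p75-129 at 0.03. The other 15 tumors lay between -0.10 and 0.44. The reference too was well above background on only 8 of 38 arrays, and the level of Hes1 therefore cannot be read from this probe in most tumors.

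**Figure D3:**
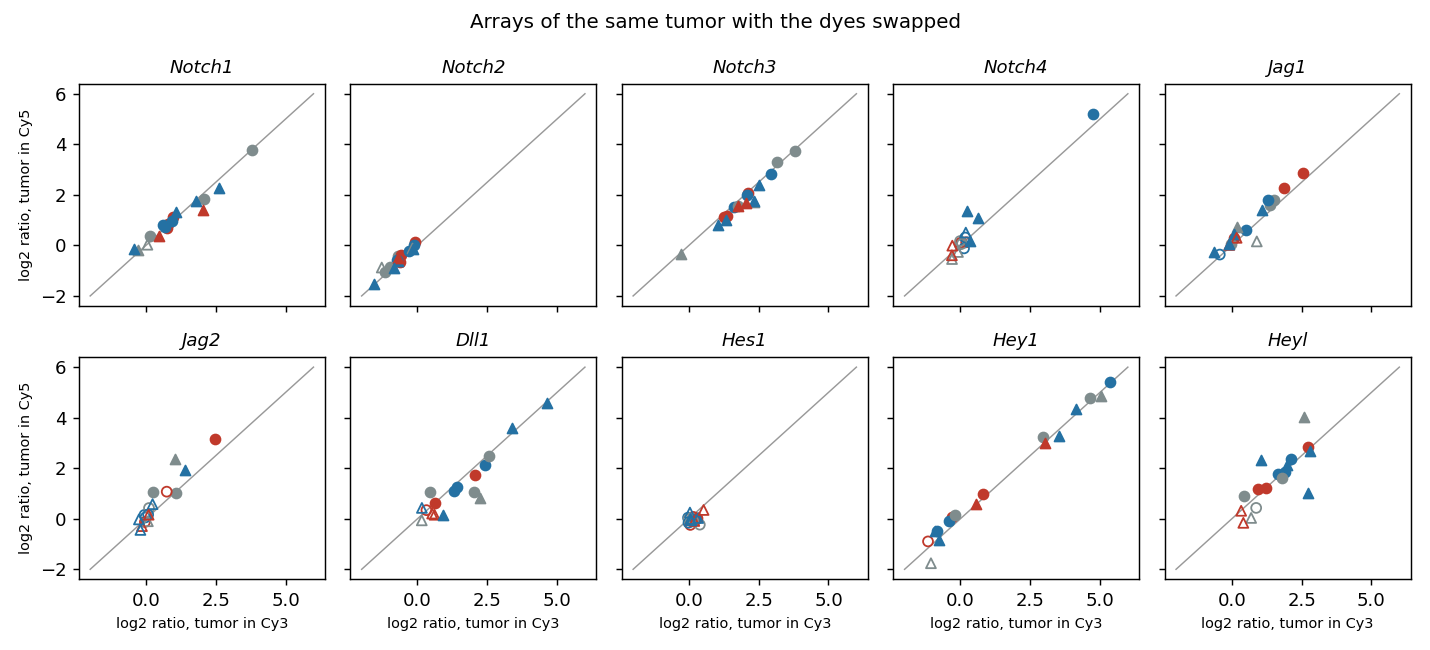
Each point sets the log2 ratio of a tumor measured in Cy3 (horizontal axis) against that of the same tumor measured in Cy5 (vertical axis), with the line of equality, 1 panel for each of the 10 Notch genes, and red for the high-Wnt, gray for the medium-Wnt and blue for the low-Wnt cluster, circles for p75 and triangles for p110, filled where measured. The points of Notch1, Notch2, Notch3 and Hey1 lie along the line (median gaps of 0.119, 0.129, 0.139 and 0.241), and Heyl has the largest single gap, 1.69.

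The first comparison asked whether the Notch genes differed between tumors with high and with low expression of Wnt genes. No member passed the test (limma, Benjamini-Hochberg adjusted over all genes, threshold 0.05), and none was without overlap between the groups. Over all genes 53 of 28786 passed (0.184%, or 8 to 90 genes when single tumors were left out) and 1.65% did not overlap. The count at an unadjusted p under 0.05 was 0 of 10 members and 3424 of all genes. Dll1 averaged 0.72 ± 0.67 over the 5 high-Wnt tumors and 1.96 ± 1.59 (SD) over the 7 low-Wnt tumors (limma adjusted p = 0.511), and without p110-143 the difference moved from -1.24 to -0.80. Notch4 was -0.04 ± 0.21 and 1.07 ± 1.75 (limma adjusted p = 0.540), and Heyl was 1.10 ± 1.05 and 2.02 ± 0.37 (limma adjusted p = 0.507). Without the 3 dimmest tumors the difference of Heyl moved from -0.92 to -0.33. Jag1 differed by 0.64 ± 0.52 (SE, limma adjusted p = 0.673), or by 0.22 without p75-80 and 1.26 without the 3 dimmest tumors. Jag2 differed by 0.45 (0.96 without the dimmest and -0.073 without p75-80) and Hey1 by -0.85 (-1.44 without p110-374 and -0.21 without p75-534). The differences of Notch1 (-0.13), Notch2 (0.13) and Notch3 (-0.26) were smaller than their standard errors. The median difference of the 10 genes was -0.20, against 0.01 over all genes. The sign of Notch3, Hey1, Jag1 and Jag2 turned when only p110 tumors were compared (0.11, 0.25, -0.16 and -0.45). Within solid carcinomas the sign of Jag1, Jag2, Notch2 and Hes1 turned (-0.40, -0.51, -0.061 and -0.0058).

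The second comparison set the 4 adenosquamous carcinomas, which contain squamous areas, against the 9 solid carcinomas. All adenosquamous carcinomas were p75 and most solid carcinomas p110, so histology cannot be fully separated from transgene and scan year. None of the 10 genes passed, and neither did any gene on the array (0%), though 27 genes passed without p75-101 and 1 without p75-94. At an unadjusted p under 0.05 there were 1588 genes, and among the members Jag1 alone. Jag1 was 1.38 ± 1.20 (SD, n = 4) in adenosquamous and 0.29 ± 0.69 (SD, n = 9) in solid carcinomas, a difference of 1.09 (limma adjusted p = 0.871), or 0.64 without p75-80 and 1.48 without p75-47. Over the other settings, apart from left-out tumors, the Jag1 difference ran from 0.52 to 1.71 and did not pass. The second Jag1 probe, near background, differed by -0.05. Hey1 was -0.12 ± 0.79 against 1.11 ± 2.53 (limma adjusted p = 0.882), and without p75-534 the difference moved from -1.24 to -0.70. Notch4 was not well above background on any of 8 adenosquamous arrays, against 10 of 22 solid arrays, a bound of at least 1.64-fold higher in solid carcinomas (limma adjusted p = 0.889). This bound rests on p75-534, without which the difference moved from -0.71 to -0.19 (limma adjusted p = 0.861). The values of no member were fully separated between the types, against 0.41% of all genes. The median difference of the members was -0.05 and of all genes -0.01. Without p110-121, a solid carcinoma, the difference of Notch1 moved from 0.10 to -0.03 and that of Heyl from -0.10 to 0.08, and no member passed.

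The third comparison set the 9 p75 against the 8 p110 tumors. The arrays of the p75 and the p110 tumors were scanned in separate years, and transgene and scan year cannot be told apart. None of the 10 genes passed, against 132 of all genes (0.459%, but 1173 genes without p110-314), and none was without overlap, against 0.195% of all genes. At an unadjusted p under 0.05 there were 0 members and 4039 genes in all. Jag1 was 1.09 ± 1.04 (SD, n = 9) in p75 and 0.28 ± 0.50 (SD, n = 8) in p110 tumors (limma adjusted p = 0.370), and Notch3 was 2.19 ± 0.91 and 1.48 ± 0.88 (limma adjusted p = 0.484). All adenosquamous carcinomas were p75. Over the other settings, apart from left-out tumors, the Jag1 difference ran from 0.14 to 1.43 and did not pass. Without p110-121 the difference of Notch3 moved from 0.71 to 0.45 (limma adjusted p = 0.660). That of Heyl moved from -0.01 to 0.24 (limma adjusted p = 0.859). With median centering in place of loess Notch3 passed, at a difference of 2.03 (limma adjusted p = 0.0383). Under that setting the median difference of the genes measured in at least 12 tumors was itself 1.10, and Notch3 stood 0.92 above it, against 0.66 above it with loess.

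**Figure D4:**
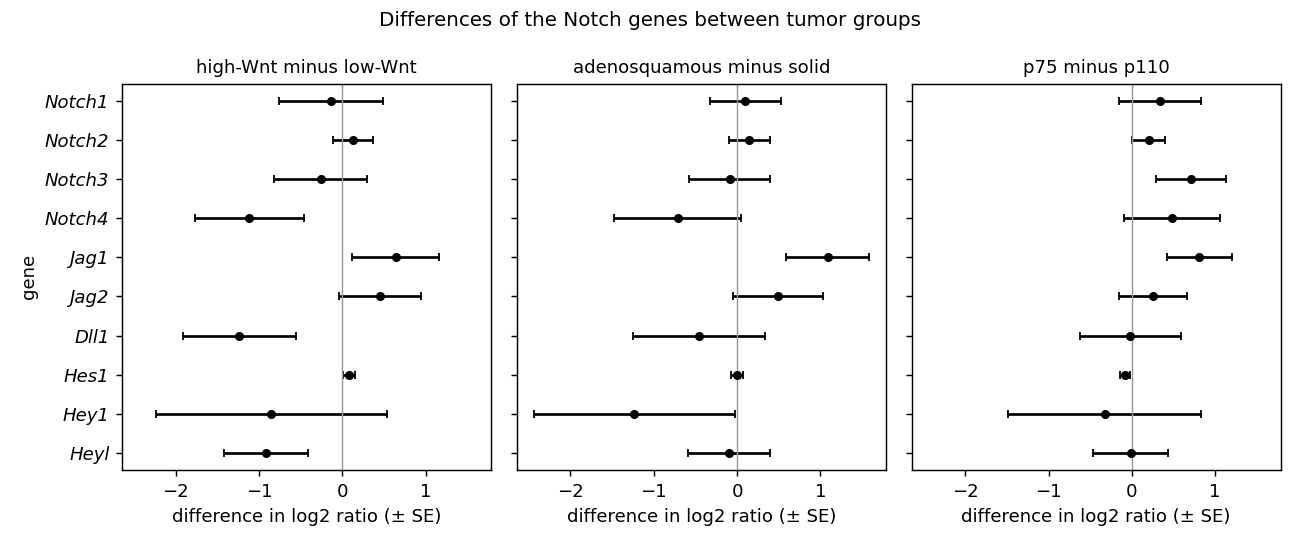
Differences in log2 ratio for the 10 Notch genes (points) with their limma standard errors (bars) in the comparisons of high-Wnt minus low-Wnt, adenosquamous minus solid and p75 minus p110. The bars of Dll1, Notch4 and Heyl lie below 0 and those of Jag1 and Hes1 above 0 in the first comparison, and none of the 30 differences passed the adjusted threshold.

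An interaction term tested whether the contrast of high-Wnt with low-Wnt was larger or smaller in p75 than in p110 tumors. No member passed, against 107 of 28786 genes. Heyl had the smallest p of the members, with an interaction of 1.61 (limma adjusted p = 0.293). The high-Wnt p110 tumors were both among the dimmest, so an effect of transgene on the contrast cannot be told apart from dim signal. Heyl was not measured in either of them, and its interaction rests in part on values near background.

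Of 45 other genes of the pathway, 44 were on the array and 22 were measured in at least 12 tumors. In high-Wnt minus low-Wnt, 1 of 44 passed higher and 0 passed lower, against 40 higher and 13 lower of 28786 genes (0.184%). By sign alone, 23 were higher and 21 lower. The gene that passed was Dlk1, a Delta-like protein that lacks the domain with which Notch ligands bind receptors. It lay far below the reference everywhere and was -4.81 in p75-47, -3.90 in p75-80, -5.06 in p75-94, -4.66 in p110-225 and -3.86 in p110-374. The low-Wnt tumors ran from -6.93 to -6.21, without overlap. The difference was 2.15 ± 0.32 (SE, limma adjusted p = 0.0193). Dlk1 was measured in 5 tumors, namely 3 high-Wnt, 1 medium-Wnt and 1 low-Wnt tumor, so most of the low-Wnt values, and those of the dim high-Wnt tumors p110-225 and p110-374, are set by signal near background. A second Dlk1 probe, measured in 2 tumors, differed by 0.11 (limma adjusted p = 0.538), and the mean of both probes by 1.13. The summed signal of the squamous markers did not overlap between these tumors either (1511 to 8669 in high-Wnt, 890 to 1174 in low-Wnt). Such sums include markers not measured, and the squamous markers measured overlapped in number (2 to 6 against 1 to 4 of 7). The basal sums overlapped (59396 to 338656 against 2403 to 80418), with medians of 181872 against 53874. The adipocyte sums overlapped too, with medians of 8109 against 83399. The part of these markers in the Dlk1 difference was not tested. Without the 3 dimmest tumors the difference was 2.02 (limma adjusted p = 0.0292). The call was lost under 8 of 20 other settings, among them no background correction (2.19, limma adjusted p = 0.0904), the tumor in Cy5 alone (2.01, limma adjusted p = 0.0993), trend and robust eBayes (2.15, limma adjusted p = 0.0591), solid carcinomas alone (1.96, limma adjusted p = 0.118), median centering (1.27, limma adjusted p = 0.672), equal spread of tumors (1.29, limma adjusted p = 0.569), the tumor color without the reference (0.85, limma adjusted p = 0.138) and p75 tumors alone (1.92, limma adjusted p = 0.198). The difference also did not pass without p110-360 (2.10, limma adjusted p = 0.0534) or without p110-374 (2.00, limma adjusted p = 0.0647).

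Of the pathway genes measured in at least 9 tumors, Spen and Itch had small p in that comparison but did not pass. Spen, a nuclear corepressor partner of RBPJ, differed by 0.42 and Itch, a ubiquitin ligase, by -0.60 (limma adjusted p = 0.347 and 0.427). Without the 3 dimmest tumors these differences were 0.093 and -0.16. Within p110 tumors (2 high-Wnt, both among the dimmest, against 4 low-Wnt) Spen passed (0.85, limma adjusted p = 0.0379), as did Fbxw7, chosen after its values were seen (-1.50, limma adjusted p = 0.0492), where 346 of all genes were called. Spen was not measured in p110-374 or p110-143. In adenosquamous minus solid, 0 of 44 passed. Among the genes measured in at least 9 tumors, the smallest p belonged to Mib2, a ubiquitin ligase that acts on ligands (-1.41), Psen2, a presenilin of γ-secretase (-0.75), and Hes5, a target gene (-0.68), each with a limma adjusted p of 0.871. Within p75 tumors the difference of Psen2 was -0.37. Hes5 was measured in 1 of the 4 adenosquamous carcinomas, and without p75-534 its difference was -0.45. Dner, chosen after its values were seen, had a smaller p and did not overlap between the types, with 0.04 ± 0.34 in adenosquamous and -0.49 ± 0.24 (SD) in solid carcinomas (limma adjusted p = 0.871), but was measured in 2 tumors.

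In p75 minus p110, 0 of 44 passed as well. With Wnt cluster as a block Neurl1a (-2.14, limma adjusted p = 0.0272) and Itch (0.71, limma adjusted p = 0.0320) passed, along with 1184 of all genes. Neurl1a, a ubiquitin ligase of the Neuralized family, was 0.30 ± 0.57 (SD, n = 9) in p75 and 2.18 ± 1.74 (SD, n = 8) in p110 tumors (limma adjusted p = 0.151), and without the 3 dimmest tumors, all p110 and the highest in Neurl1a, the difference moved from -1.88 to -0.90. Its reference signal, on the log2 scale, was also lower on p75 than on p110 arrays (11.3 against 13.4), and by the tumor color without the reference the difference was -3.62 (limma adjusted p = 0.00223), where 1693 of all genes were called. Among the genes measured in at least 9 tumors, Dtx3, of the Deltex family, differed by -0.77 and Itch by 0.62 (limma adjusted p = 0.0923 and 0.185), the latter by 0.29 without the 3 dimmest tumors. Without p110-314, 3 of the 44 passed, against 1173 of 28786 genes. They were Neurl1a (-2.24, limma adjusted p = 0.0300), Dtx3 (-0.86, limma adjusted p = 0.0267) and Dtx4 (-2.03, limma adjusted p = 0.0471), the last chosen after its values were seen.

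For the 7 members measured in at least 12 tumors, the genes with the most similar pattern over 17 tumors were found by the mean absolute difference after centering. For Hey1 they were Rasl12 (0.961) and D530004J12Rik (1.03), against a mean absolute deviation of 2.16 of Hey1 itself. For Dll1 they were Tshz2 (0.439) and Mid2 (0.591), against 0.951. For Notch1 they were AK038166 (0.459) and Clstn1 (0.485), against 0.766, and for Notch3 Myo6 (0.365) and Hap1 (0.386), against 0.674. For Notch2 the nearest genes, AW554918 (0.240) and Flot1 (0.242), were hardly closer than the spread of Notch2 itself (0.312). Jag1 was nearest to Mid1ip1 (0.445) and Epha2 (0.458), against 0.759, and Heyl to Ccny and Synj1 (both 0.368), against 0.758. These are descriptions over the same 17 tumors and arrays.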

How the data were processed

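RNA of microdissected tumor cells from 17 mice was hybridized on 38 two-color Agilent Whole Mouse Genome arrays. Per the file headers and the methods, images were read with Feature Extraction and the raw data analyzed with limma, whose version is not given in the sources used here. The values used were the deposited log2 ratios of tumor over reference, 1 column per tumor. Log2 ratios rebuilt from the deposited scanner intensity columns (normexp with offset 50, loess within arrays, sign turned for dye swaps, mean over arrays) differed from them by at most 4.98e-08, which settles their scale and direction. Of 41174 probes, 22951 (55.7%) were named through RefSeq and the others kept the file's name.

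Spots of a probe were averaged and the probe brightest over all arrays stood for a gene. A probe with several spots counted as above background on an array when more than 0.5 of its spots did. Groups were compared with limma 3.58.1 in R 4.3.3 over all 17 tumors (3 clusters, 5 histological types or 2 transgenes as groups), with Benjamini-Hochberg adjustment over 28786 genes and a threshold of 0.05. The fit was tested on simulated data. Clusters were read from the study's figure, since the labels do not give them. Each tumor came from a different mouse. The number of arrays limits the precision, and 2 rounds of amplification can change ratios.

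All members and all their probes are named. Other pathway genes were named when they passed the threshold, and otherwise when they were among the 3 with the smallest p in a comparison and were measured in at least 9 tumors, and 1 gene that met this rule is not reported here. The 2 genes nearest to a member were named where it was measured in at least 12. Members and lists were chosen with earlier results of these data known. Alternatives covered the background correction, scaling, probes, dyes, detection filter, slide, scan day, transgene and single tumors.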

Additional observations from a re-analysis of the deposited data

Results flagged for a closer look

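Among 126 groups of 4 to 9 tumors examined for the 10 members and the named pathway genes, 14 held a highest or lowest tumor that stood apart from its group by Dixon's test, where chance gives about 1 in 20 (6.3). Tumors of different groupings are the same tumors, so the flags are not independent. The Notch4 value of 4.99 in p75-534 stood apart among low-Wnt tumors, solid carcinomas and p75 tumors alike. Notch1 stood apart at 3.79 in p75-216 among p75 tumors, Notch2 at 0.0389 in p75-80 among high-Wnt tumors and Dll1 at 1.90 in p75-80 among high-Wnt tumors. Jag2 did so at 2.82 in p75-80 among p75 tumors and at 1.66 in p110-143 among low-Wnt tumors. Hes1 in p110-374 (0.44, among p110 tumors) and Spen in p110-143 (0.20, among low-Wnt tumors) were apart without being measured there. Psen2 was high in p75-90 among p75 tumors (1.72), Hes5 in p75-534 among solid carcinomas and among p75 tumors (2.44), and Neurl1a in p110-143 among low-Wnt tumors (2.05). No interaction of transgene and Wnt cluster passed for a member.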

How the results depend on the processing

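No member passed the threshold in any comparison under any alternative, with 1 exception, Notch3 in p75 minus p110 with median centering. Apart from left-out tumors, the members kept their direction in 185 of 198 values for high-Wnt minus low-Wnt, 161 of 178 for adenosquamous minus solid and 138 of 158 for p75 minus p110. All reversed values below were past no threshold, and their causes were not tested. Notch4 and Hes1 have no value under the filter on genes measured in at least 5 tumors, and a fit of only the groups compared is the same fit for p75 minus p110. Hes1, Notch4 and Jag2 are limited by signal over background.

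For high-Wnt minus low-Wnt, the number of genes called was 53. It was 0 with no background correction and with median centering, 5 with Feature Extraction's processed signals and with tumors scaled to the same spread, 7 with the tumor in Cy5 alone, 9 in Cy3 alone, 4 with the tumor color without the reference, 22 with trend and robust eBayes, 143 with only the groups compared, 87 with slide as a random block, 118 with transgene as a block, 10 within p75 tumors, 346 within p110 tumors and 107 without p110-121, a setting chosen after seeing the data. The number of other pathway genes called, 1, was 3 within p110 tumors, and 0 with no background correction, median centering, equal spread, Cy5 alone, no reference, trend and robust eBayes, within p75 tumors and within solid carcinomas. With single tumors left out, 8 to 90 genes, 0 to 1 other pathway genes and 0 members were called. The share of measured probes then differed by -11.6 to -4.14 points.

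For adenosquamous minus solid, 1 gene was called with Feature Extraction's signals, and 0 to 27 genes with single tumors left out (27 without p75-101). The share of measured probes differed by -4.37 to 1.93 points. For p75 minus p110, the 132 genes called became 210 with no background correction, 308 with Feature Extraction's signals, 1190 with median centering, 259 in Cy5 alone, 70 in Cy3 alone, 1693 without the reference, 85 without the 3 dimmest tumors, 0 within solid carcinomas and 1184 with Wnt cluster as a block. Members called were 1 with median centering, and other pathway genes called were 6 without the reference and 2 with Wnt cluster as a block. Left-out tumors gave 35 to 1173 genes (1173 without p110-314), 0 to 3 pathway genes and differences of 4.12 to 9.92 points. The calls that were higher in p75 made up 46.2% of 132, but 93.5% with median centering, 29.5% with no background correction and 30.5% in Cy5 alone. In high-Wnt minus low-Wnt the share higher was 75.5%, against 100% with Feature Extraction's signals and with equal spread, 88.9% in Cy3 alone and 50% without the reference. Median centering moved the median difference of genes measured in at least 12 tumors to -0.76, 0.33 and 1.10 in the 3 comparisons, no reference to -0.11, 0.11 and 0.22, and Feature Extraction's signals to -0.15 and 0.20 in the first and the last.

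Single genes that turned direction in high-Wnt minus low-Wnt were Notch1 with Feature Extraction's signals (0.14), slide as a block (0.044) and within p75 tumors (0.051). Notch2 turned with median centering (-0.71), within p75 tumors (-0.047) and within solid carcinomas (-0.061). Median centering also turned Spen (-0.038). Within p110 tumors Notch3 (0.11), Jag1 (-0.16), Jag2 (-0.45) and Hey1 (0.25) turned, and within solid carcinomas Jag1 (-0.40), Jag2 (-0.51) and Hes1 (-0.0058).

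In adenosquamous minus solid, Hes1 turned with Feature Extraction's signals (0.096), equal spread (0.018), no reference (0.096), scan day as a block (0.0014), transgene as a block (0.079) and within p75 tumors (0.041). Heyl turned with equal spread (0.17), no reference (0.27), transgene as a block (0.074), within p75 tumors (0.21) and without p110-121 (0.0796). Notch3 turned with median centering (0.29) and equal spread (0.22), Notch2 with transgene as a block (-0.0066) and within p75 tumors (-0.035), and Notch1 with no reference (-0.30) and without p110-121 (-0.028).

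In p75 minus p110, Heyl turned with Feature Extraction's signals (0.30), Wnt cluster as a block (0.13), the mean of all probes (0.0021), median centering (0.12), no reference (0.21), Cy5 alone (0.032) and equal spread (0.20). Dll1 turned with Feature Extraction's signals (0.24), Wnt cluster as a block (0.15), median centering (0.084), Cy5 alone (0.0803) and equal spread (0.23). Hey1 turned with median centering (0.87), within solid carcinomas (0.68) and without the 3 dimmest tumors (0.38), Notch1 with no reference (-0.30) and within solid carcinomas (-0.32), and Jag2 with no reference (-0.059), within solid carcinomas (-0.25) and without the 3 dimmest tumors (-0.013). Dtx3 turned with median centering (0.18) and Itch with no reference (-0.30).

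With single tumors left out, the values that changed sign ran from -0.362 to 0.094 (Notch1), -0.030 to 0.221 (Notch2) and -0.073 to 0.688 (Jag2) in high-Wnt minus low-Wnt. In adenosquamous minus solid they ran from -0.045 to 0.042 (Hes1), -0.453 to 0.124 (Heyl), -0.140 to 0.827 (Jag2), -0.035 to 0.307 (Notch1), -0.013 to 0.220 (Notch2) and -0.330 to 0.072 (Notch3). In p75 minus p110 they ran from -0.213 to 0.439 (Dll1), -0.831 to 0.144 (Hey1), -0.217 to 0.236 (Heyl), -0.024 to 0.432 (Jag2) and -0.064 to 0.582 (Notch4).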
